A study of Mus musculus with 17 samples.

Results

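The 10 genes described here encode the MHC class I molecules of the mouse and the machinery that supplies them with peptides: H2-K1, H2-D1, H2-Q7, B2m, Tap1, Tap2, Tapbp, Psmb8, Psmb9 and Psmb10. They were chosen by gene symbol, as 10 of the 21683 rows of the expression table, and all 10 had the level required for testing. RNA-Seq was performed on 17 libraries of peritoneal macrophages (PMs) that were taken from 8-week-old C57BL/6 mice after an injection of thioglycollate, an irritant that draws macrophages into the peritoneal cavity. The cells attached to plates for 4 hours and then received PBS or HIV Tat, the viral trans-activator protein, at 100 nM for 12 hours. The 3 groups were PMs of IKKβF/FLDLR-/- mice given PBS (PBS, n = 6), PMs of IKKβF/FLDLR-/- mice given Tat (F/F Tat, n = 6) and PMs of IKKβΔMyeLDLR-/- mice given Tat (ΔMye Tat, n = 5). All mice lacked the LDL receptor and carried floxed alleles of IKKβ, the kinase that activates canonical NF-κB, and the ΔMye mice also carried a Cre gene in the Lyz2 locus, which is active in macrophages and other myeloid cells such as neutrophils. PMs of ΔMye mice given PBS were not analysed here, so the deletion's effect on the genes without Tat is not known here, and the effect of Tat could not be compared between genotypes.

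MHC class I molecules display short peptides from inside the cell to CD8 T cells. The heavy chain, such as those of H2-K1 and H2-D1, pairs with the light chain β2-microglobulin, the product of B2m. Peptides are cut by the proteasome, pumped into the endoplasmic reticulum by the transporter of TAP1 and TAP2, and loaded with the help of tapasin, the product of Tapbp. Interferons and other inflammatory signals lead cells to replace the catalytic subunits of the constitutive proteasome (from Psmb5, Psmb6 and Psmb7) with those of the immunoproteasome (from Psmb8, Psmb9 and Psmb10), and NLRC5 is a known transactivator of class I heavy chain genes, B2m, Tap1 and Psmb9. H2-Q7 encodes the Qa-2 antigen, a nonclassical class I heavy chain.

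The regions around the starts of the heavy chain genes and B2m are shown first because these 4 genes responded to Tat in different degrees, as described below. Each stretch is given 5′ to 3′ on the strand of the gene, from RefSeq on GRCm38.p6. Capitals mark, in this order for the heavy chains, a match to the NF-κB consensus, a match to an interferon regulatory factor element (GAA, any 2 bases and GAAAC, read here as its reverse complement), TGACG (the short form of a cAMP response element) and ATTGG (the reverse complement of CCAAT). In B2m the first capitals are the core of an interferon-stimulated response element (GAAA, any 2 bases and GAAA), followed by the NF-κB match, TGACG and ATTGG. The stretches are chr17:34000348-34000468 (minus strand) for H2-K1, chr17:35262923-35262952 (plus strand) for H2-D1, chr17:35439012-35439136 (plus strand) for H2-Q7 and chr2:122147517-122147685 (plus strand) for B2m. Only 30 bases are shown for H2-D1. They lie upstream of the RefSeq start but within an annotated exon and UTR of H2-D1 in GENCODE, whose gene starts further upstream.
H2-K1: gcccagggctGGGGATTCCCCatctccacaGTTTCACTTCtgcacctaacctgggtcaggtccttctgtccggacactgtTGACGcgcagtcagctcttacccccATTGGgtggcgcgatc
H2-D1: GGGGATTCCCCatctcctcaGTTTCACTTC
H2-Q7: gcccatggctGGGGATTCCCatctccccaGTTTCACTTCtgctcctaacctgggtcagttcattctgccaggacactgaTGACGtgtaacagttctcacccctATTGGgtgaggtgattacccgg
B2m: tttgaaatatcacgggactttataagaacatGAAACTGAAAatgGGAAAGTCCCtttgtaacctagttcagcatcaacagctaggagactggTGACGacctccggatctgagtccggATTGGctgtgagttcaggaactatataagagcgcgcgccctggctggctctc

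A promoter was taken as the 250 bases before and 50 bases after the RefSeq start, and 9 of the 10 genes had one in the table used; Tap2 had no entry. The NF-κB consensus was found on either strand in 4 of the 9 (H2-K1, H2-D1, H2-Q7 and B2m) and in 8.18% of 27025 promoters. In H2-K1 and H2-D1 the match is counted at overlapping positions of a single site. The interferon regulatory factor element was found in 3 of the 9, the heavy chain genes, and in 1.77% of all promoters; it was added to the search after the sequences had been seen. The core of the interferon-stimulated response element was found in B2m alone of the 9 and in 3.49% of all promoters. CCAAT was found in 7 of the 9 and in 37.9% of all promoters, and TGACG in 6 of the 9 and in 21%. H2-K1, H2-D1 and H2-Q7 thus share the NF-κB match and, downstream of it, the same run of bases GTTTCACTTC. These matches describe the letters in the windows and not the binding of a factor. The stretches shown for H2-K1, H2-D1 and H2-Q7 are much alike, so the counts of these 3 genes are not independent of each other.

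In the genome, 8 of the 10 genes lie on chromosome 17, in or near the MHC. Psmb9 (34181987 to 34187764, minus strand), Tap1 (34187553 to 34197225, plus strand), Psmb8 (34197721 to 34201454, plus strand) and Tap2 (34203527 to 34216321, plus strand) are neighbours within 34335 bases of GRCm38. Psmb9 and Tap1 run in opposite directions and overlap by 212 bases, and 495 bases separate the end of Tap1 from the start of Psmb8. H2-K1 (33996017 to 34000347, minus strand), Tapbp (33915899 to 33929292, plus strand), H2-D1 (35262730 to 35267499, plus strand) and H2-Q7 (35439155 to 35443773, plus strand) lie on the same chromosome. B2m is on chromosome 2 (122147686 to 122153083, plus strand) and Psmb10 on chromosome 8 (105935735 to 105938444, minus strand).

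The values are TPM, a share of all transcripts in a library that takes transcript length into account, so levels can be set beside each other between genes. The listed genes of a library summed to between 889318 and 903576 TPM, and the number of reads behind a value is unknown. The median difference of all 10451 tested genes between F/F Tat and PBS was -0.65 on the log2 scale. TPM are shares of a fixed total, so a rise of some genes lowers the values of the rest. Differences are therefore also given after median-ratio scaling for the 10 genes, which sets the bulk of genes equal between libraries and brings this median to -0.03. The same medians were 0.22 and 0.01 between ΔMye Tat and F/F Tat, and -0.43 and -0.01 between ΔMye Tat and PBS. Ikbkb, the targeted gene, was at 26.8 ± 1.99 TPM (SD, n = 6) in PBS, 23.2 ± 1.44 TPM (n = 6) in F/F Tat and 16.4 ± 2.59 TPM (n = 5) in ΔMye Tat, and was lower in ΔMye Tat than in F/F Tat by limma (log2 difference -0.51, adjusted p = 4.51e-05). A floxed allele loses only a piece of its gene, so transcript that remains can still be counted. The source of the Ikbkb level in ΔMye Tat was not tested.

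The libraries were checked for other cell types, since class I genes are active in nearly all cells with a nucleus. All 8 macrophage markers were above 1 TPM in every group, and their summed level was 25796 to 26807 TPM in PBS, 10310 to 10890 TPM in F/F Tat and 8019 to 8344 TPM in ΔMye Tat. Most of it was Lyz2, at 22382, 6993 and 4333 TPM on average, in the same order. Lyz2 was already lower in F/F Tat than in PBS, groups without the Cre gene. The Cre gene of the ΔMye mice lies in the Lyz2 locus. For both reasons this sum is not a measure of macrophage content. The other macrophage markers went both ways between PBS and F/F Tat. Csf1r (381 and 64.0 TPM), Cd68 (2596 and 1744), Itgam (178 and 106) and Adgre1 (499 and 441) were lower on average with Tat. Cd14 (203 and 842), Fcgr1 (113 and 300) and Mertk (15.4 and 20.1) were higher. The summed level of 6 NK cell markers was 5.79 to 10.7, 35.0 to 39.6 and 20.2 to 27.3 TPM, in the same order, and most of it was Klrk1, at 1.54, 30.2 and 15.1 TPM on average, while the defining marker Ncr1 stayed under 1 TPM on average in each group. Neutrophil markers summed to 52.7 to 61.2, 65.7 to 77.7 and 87.7 to 106 TPM, most of it S100a8 and with Ngp at 0 in all 17 libraries, and T cell markers to 7.18 to 13.8, 6.58 to 7.99 and 13.1 to 15 TPM. None of the 6 dendritic cell markers reached a mean of 1 TPM in any group. The part of these other cells in the results was not tested. In bulk RNA, a larger number of cells of a type and more RNA per cell cannot be told apart.

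To see how the class I pathway responded to Tat, F/F Tat was compared with PBS. Of the 10 genes, 9 rose with Tat, at an adjusted p under 0.01 by limma with Benjamini-Hochberg adjustment over all tested genes, and H2-D1 did not pass as deposited. For comparison, 17% of all tested genes were higher by this rule and 67.6% were lower. The largest rises were those of Tap1, Tap2 and H2-Q7, which also passed a 3-fold change, as did 5.21% of all tested genes upward. The summed level of the 10 genes was 18668 to 19324 TPM in PBS and 25625 to 26367 TPM in F/F Tat, with no overlap. The median log2 difference of the 10 genes was 1.35 as deposited and 1.98 after scaling, beside -0.65 and -0.03 over all tested genes. The 9 genes that passed were also free of overlap between the groups, beside 15.3% of all tested genes. After scaling all 10 were higher, beside 37.1% of all tested genes, and 7 passed the 3-fold change, beside 8.51%.

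**Figure D1:**
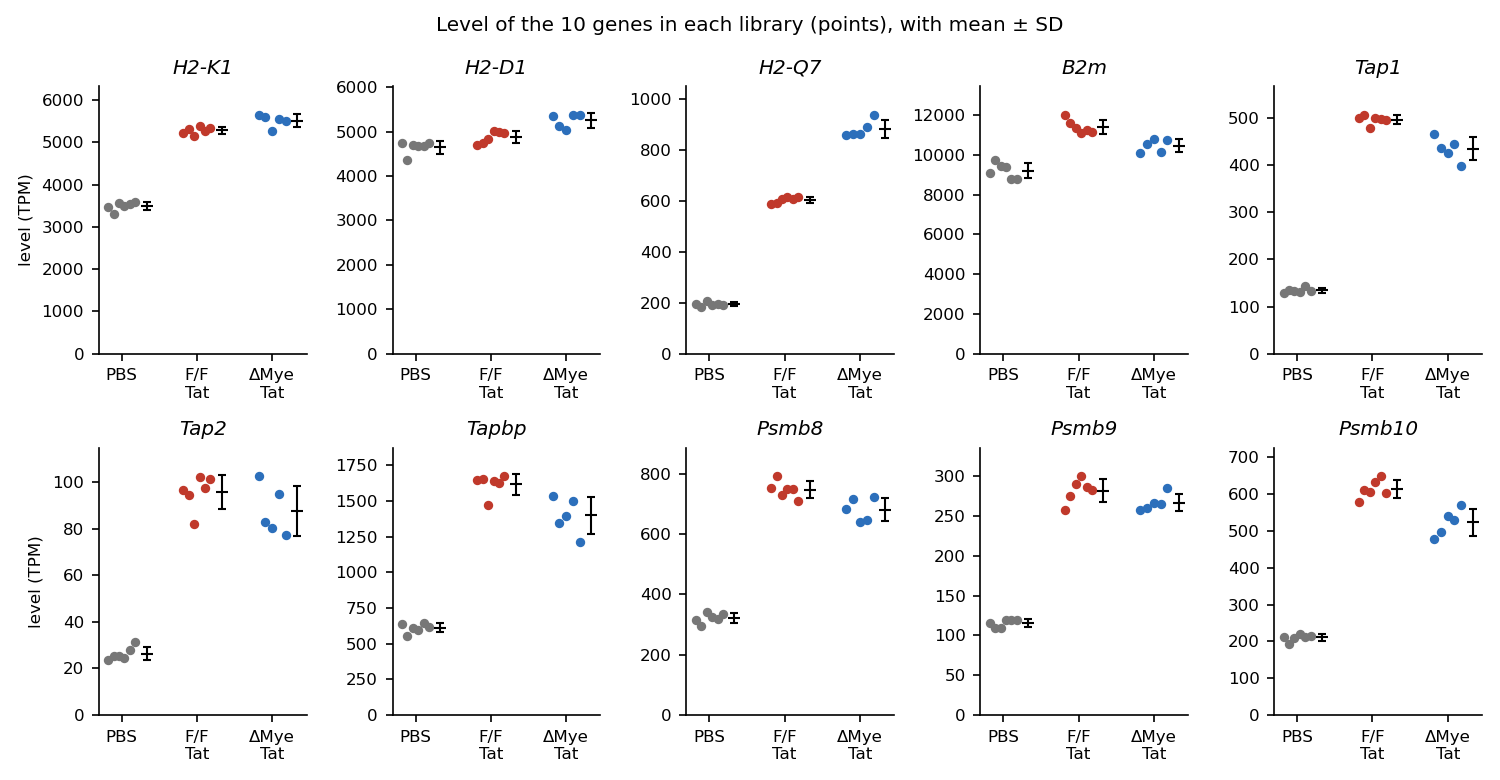
Level of each of the 10 genes in TPM (vertical axes from 0) in every library of PBS (n = 6), F/F Tat (n = 6) and ΔMye Tat (n = 5), with points for libraries and bars for mean ± SD. Each gene except H2-D1 sits higher in every F/F Tat library than in every PBS library, and H2-Q7 sits higher again in ΔMye Tat.

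The heavy chain genes differed widely in their response. H2-K1 was at 3306 to 3595 TPM in PBS (median 3519) and at 5159 to 5391 TPM in F/F Tat (median 5292). The groups did not overlap, and the log2 difference was 0.60 (SE 0.024, limma adjusted p = 7.28e-15), or 1.23 after scaling. H2-D1, the other classical heavy chain gene, had its lowest, median and highest level at 4359, 4688 and 4753 TPM in PBS and at 4695, 4907 and 5016 TPM in F/F Tat. These groups overlapped, and the log2 difference of 0.069 (95% interval 0.012 to 0.125, limma adjusted p = 0.0224) did not pass. Its direction depended on the scaling, with 0.70 after median-ratio scaling (adjusted p = 2.77e-11) and -0.31 after quantile normalization (adjusted p = 9.79e-10), both by limma. H2-Q7 was at 181 to 207 TPM in PBS (median 194) and at 588 to 614 TPM in F/F Tat (median 607). Every Tat library was thus far above every PBS library, with a log2 difference of 1.64 (SE 0.030, limma adjusted p = 3.09e-20), or 2.27 after scaling. B2m, whose product is the light chain shared by all of these heavy chains, was already among the most abundant transcripts in PBS, at 8793 to 9771 TPM (median 9244). With Tat it reached 11096 to 12032 TPM (median 11308), without overlap, and the log2 difference was 0.31 (SE 0.030, limma adjusted p = 8.1e-09), or 0.94 after scaling.

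The genes for peptide transport and loading rose more than the classical heavy chains. Tap1 was at 130 to 144 TPM in PBS (median 133) and at 480 to 508 TPM in F/F Tat (median 499). Tap2, at a lower level, was at 23.8 to 31.3 TPM in PBS (median 25.5) and at 81.9 to 102 TPM in F/F Tat (median 96.9). Both chains of the transporter rose, with similar log2 differences of 1.89 for Tap1 (SE 0.033, limma adjusted p = 1.83e-20) and 1.86 for Tap2 (SE 0.076, limma adjusted p = 1.27e-14), or 2.52 and 2.49 after scaling. Tapbp, for tapasin, which bridges the transporter and the empty class I molecule, was at 557 to 646 TPM in PBS (median 613) and at 1473 to 1675 TPM in F/F Tat (median 1642). Its groups did not overlap, and its log2 difference was 1.40 (SE 0.050, limma adjusted p = 1.38e-15), or 2.04 after scaling.

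All 3 catalytic subunits of the immunoproteasome rose without overlap. Psmb8, for the subunit β5i, was at 296 to 343 TPM in PBS (median 322) and at 709 to 793 TPM in F/F Tat (median 750). Psmb9, for β1i, was at 109 to 120 TPM (median 117) and then at 257 to 300 TPM (median 284). Psmb10, for β2i, was at 194 to 221 TPM (median 213) and then at 580 to 649 TPM (median 609). Psmb10 had the highest of the 3 differences, 1.54 on the log2 scale (SE 0.041, limma adjusted p = 1.18e-17). Those of Psmb8 and Psmb9 were 1.22 (SE 0.039, adjusted p = 2.23e-16) and 1.29 (SE 0.038, adjusted p = 7.13e-17) by limma. After scaling the 3 values were 1.85 for Psmb8, 1.92 for Psmb9 and 2.18 for Psmb10.

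**Figure D2:**
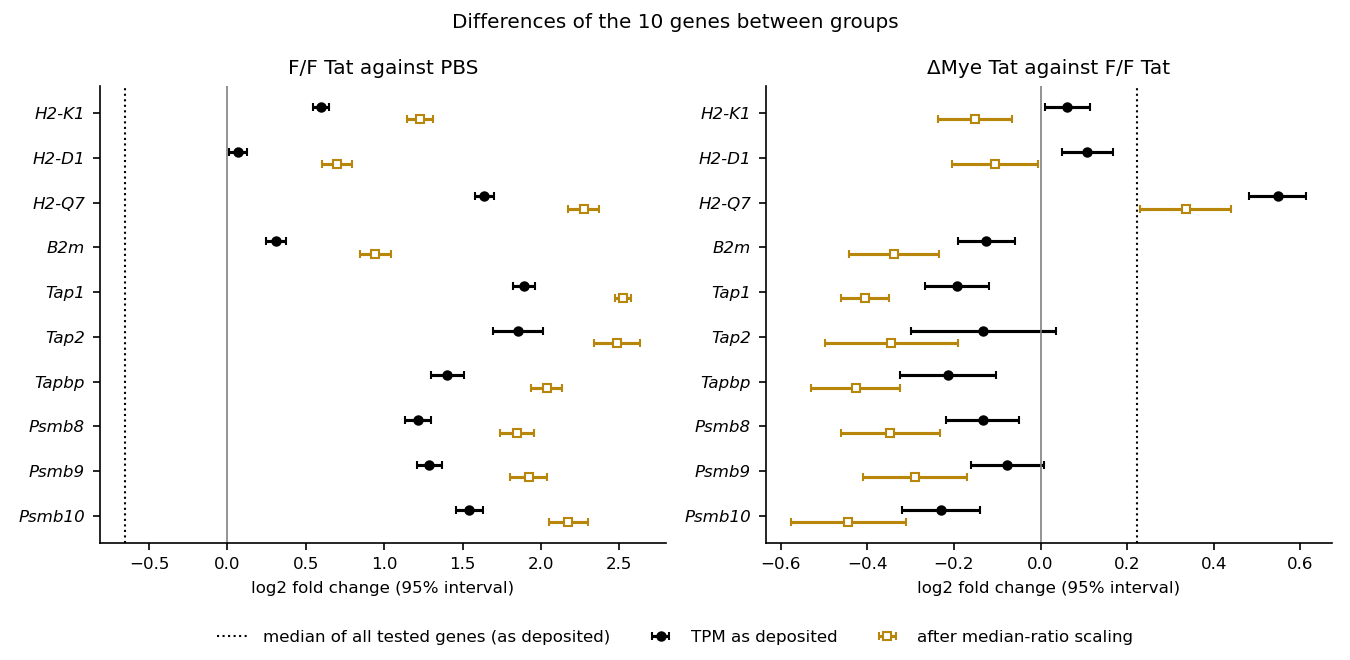
Log2 fold change of each gene (horizontal axes, with 95% intervals) for F/F Tat against PBS and for ΔMye Tat against F/F Tat, as deposited (filled) and after median-ratio scaling (open), with a dotted line at the median of all tested genes. With Tat every open symbol lies above 0, while between ΔMye Tat and F/F Tat the values lie on both sides of 0 and H2-Q7 alone is above 0 on both scales.

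To see how the genes stood in macrophages with a myeloid deletion of IKKβ, ΔMye Tat was compared with F/F Tat. The genes did not move together. H2-Q7 was higher again, and Tap1, Tapbp, Psmb8 and Psmb10 were slightly lower (limma, adjusted p under 0.01). The calls of Tapbp (adjusted p = 0.0117) and Psmb8 (adjusted p = 0.0101) were lost after quantile normalization (limma). As deposited H2-D1 was also slightly higher and B2m slightly lower, but the direction of both turned under another scaling. H2-K1, Tap2 and Psmb9 did not pass as deposited. Thus 2 of 10 were higher, beside 38.8% of all tested genes, and 5 were lower, beside 8.87%. No gene passed a 3-fold change, beside 0.44% upward and 0.316% downward. The groups were free of overlap for H2-D1 and H2-Q7 upward, beside 28.6%, and for B2m, Tap1 and Psmb10 downward, beside 8.01%. The median log2 difference of the 10 genes was -0.13, beside 0.22 over all tested genes, and -0.34 after scaling, beside 0.01. After scaling H2-Q7 was the 1 gene that was higher, beside 16.4%, and 8 were lower, beside 18.8%.

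H2-Q7 stood out, at 859, 861, 863, 892 and 939 TPM in the 5 ΔMye Tat libraries. All of them were above the highest F/F Tat library at 614 TPM. The log2 difference was 0.55 (SE 0.031, limma adjusted p = 3.81e-11) and 0.33 after scaling (adjusted p = 1.94e-05). Of the 31-base words of the H2-Q7 transcripts, 39.2% occur also in other genes, against 0 for B2m and Psmb10, so reads of H2-Q7 could have been divided with its close relatives. H2-Q6, one of these relatives, was at 83.5, 322 and 454 TPM on average in PBS, F/F Tat and ΔMye Tat, and was higher in ΔMye Tat than in F/F Tat (log2 difference 0.49, limma adjusted p = 5.32e-08).

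The classical heavy chains and B2m were near their F/F Tat level. H2-K1 was at 5654, 5599, 5266, 5554 and 5501 TPM in the ΔMye Tat libraries, and the difference from F/F Tat was 0.062 on the log2 scale (95% interval 0.010 to 0.114, limma adjusted p = 0.0386), or -0.15 after median-ratio scaling (limma adjusted p = 0.00544) and 0.33 after quantile normalization (limma adjusted p = 1.61e-09). H2-D1 was at 5360, 5137, 5029, 5384 and 5374 TPM. All 5 were above the highest F/F Tat library, with a log2 difference of 0.11 (SE 0.028, limma adjusted p = 0.0028), but after median-ratio scaling the difference was -0.105 (limma adjusted p = 0.0786) and after quantile normalization 0.31 (limma adjusted p = 1.74e-08). B2m was at 10087, 10571, 10815, 10140 and 10757 TPM, all below the lowest F/F Tat library. Its log2 difference was -0.125 (SE 0.031, limma adjusted p = 0.00213) and -0.34 after median-ratio scaling, but 0.20 after quantile normalization (limma adjusted p = 2.29e-08). For H2-K1, H2-D1 and B2m, then, the direction between these groups depended on the scaling.

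Of the transport and loading genes, Tap1 was at 467, 438, 427, 447 and 400 TPM in the ΔMye Tat libraries. All were below the lowest F/F Tat library at 480 TPM, with a log2 difference of -0.19 (SE 0.035, limma adjusted p = 1.16e-04), or -0.41 after scaling. Tap2, at 103, 82.8, 80.2, 94.8 and 77.4 TPM, overlapped F/F Tat, and its log2 difference was -0.13 (95% interval -0.299 to 0.035, limma adjusted p = 0.16), or -0.34 after median-ratio scaling (limma adjusted p = 7.27e-04). After quantile normalization Tap2 did not pass (-0.21, limma adjusted p = 0.0343). Tapbp, at 1533, 1348, 1398, 1503 and 1214 TPM, also overlapped F/F Tat, with a log2 difference of -0.21 (SE 0.053, limma adjusted p = 0.0018), -0.43 after median-ratio scaling and -0.21 after quantile normalization, where it did not pass. All 3 genes had negative differences on each scale, of a smaller size than their rise with Tat.

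The immunoproteasome genes had small negative differences too. Psmb10, at 479, 497, 541, 530 and 572 TPM in ΔMye Tat, was below every F/F Tat library, with a log2 difference of -0.23 (SE 0.043, limma adjusted p = 1.43e-04), or -0.44 after scaling. Psmb8, at 683, 716, 640, 646 and 725 TPM, overlapped F/F Tat, and its log2 difference was -0.13 (SE 0.041, limma adjusted p = 0.00824), or -0.35 after scaling. This call of Psmb8 was lost when any 1 of 10 libraries was left out (PBS replicates 4 and 5, F/F Tat replicates 7 to 11 and ΔMye Tat replicates 19, 21 and 22), with log2 differences from -0.141 to -0.112 and limma adjusted p values up to 0.0301. Psmb9, at 257, 260, 267, 265 and 285 TPM, did not pass (log2 difference -0.077, limma adjusted p = 0.105), but after median-ratio scaling the difference was -0.29 (limma adjusted p = 3.79e-04). After quantile normalization Psmb9 again did not pass (-0.104, limma adjusted p = 0.0535).

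Set against PBS, every gene was higher in ΔMye Tat, all 10 at an adjusted p under 0.01 by limma, beside 17.5% of all tested genes, and all 10 without overlap, beside 14.8%, except that H2-D1 had a log2 difference of -0.001 instead of 0.18 after quantile normalization. H2-Q7 had the largest difference, 2.19 on the log2 scale (limma adjusted p = 1.22e-21), followed by Tap2 with 1.725 and Tap1 with 1.70. These 3 genes passed a 3-fold change, as did 4.38% of all tested genes upward. The median over the 10 genes was 1.20, or 1.62 after scaling, beside -0.43 and -0.01 over all tested genes. This comparison combines genotype and Tat, and it shares libraries with both of the others.

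Ratios of levels within a library do not depend on a factor applied to the whole library, although quantile normalization can move them, and 6 were compared in the 3 comparisons by exact permutation (two-sided), with Benjamini-Hochberg adjustment over these 18 tests. The ratio of each immunoproteasome subunit to the constitutive subunit whose place it takes rose with Tat. The Psmb8 to Psmb5 ratio was 0.639 ± 0.026 (SD, n = 6) in PBS, 2.44 ± 0.14 (n = 6) in F/F Tat and 1.92 ± 0.12 (n = 5) in ΔMye Tat. In PBS the constitutive transcript was thus the more abundant, and in every Tat library the immunoproteasome transcript was. The log2 rise with Tat was 1.93 (exact permutation p = 0.00216, adjusted p = 0.00649), and the ratio was lower by a log2 difference of -0.35 in ΔMye Tat than in F/F Tat (exact permutation p = 0.00433, adjusted p = 0.00649). These are the smallest p values that 6 against 6 and 6 against 5 libraries allow, and both differences were free of overlap. Psmb5 itself was lower in F/F Tat than in PBS as deposited (log2 difference -0.71, limma adjusted p = 5.08e-12). Its difference was near 0 after median-ratio scaling (-0.08, limma adjusted p = 0.248) but -0.92 after quantile normalization (limma adjusted p = 2.44e-13). Of its 31-base words, 71.7% occur in other genes.

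**Figure D3:**
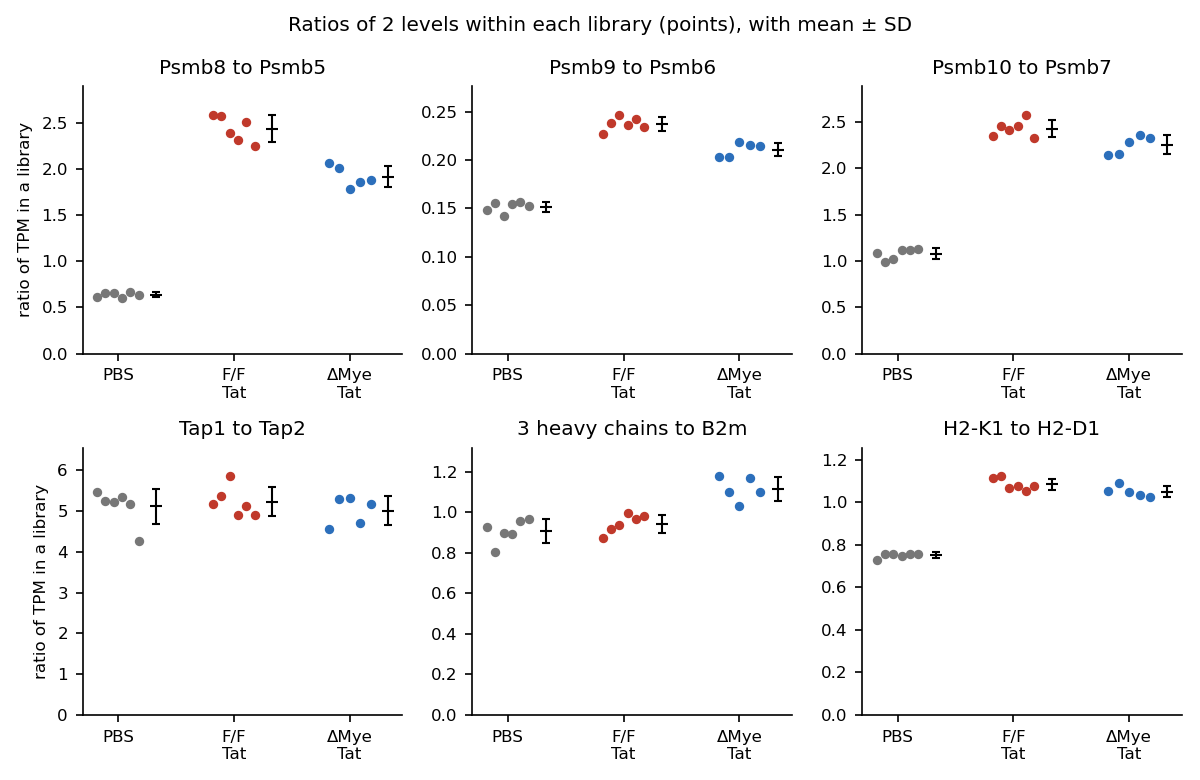
Ratio of TPM within each library (vertical axes from 0) for 6 pairs of genes or sums, by group, with points for libraries and bars for mean ± SD. The 3 ratios of immunoproteasome to constitutive subunits sit higher in F/F Tat than in PBS without overlap, while Tap1 to Tap2 overlaps in all groups.

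For the other pairs of subunits the rise was smaller. The Psmb10 to Psmb7 ratio was 1.08 ± 0.060 in PBS (SD), against 2.43 ± 0.092 for F/F Tat and 2.26 ± 0.10 for ΔMye Tat. It rose with Tat by 1.175 on the log2 scale without overlap (exact permutation adjusted p = 0.00649), and differed by -0.107 between ΔMye Tat and F/F Tat with overlap (exact permutation adjusted p = 0.03). That difference no longer passed when any 1 of 7 libraries was left out (F/F Tat replicates 8 to 11 and ΔMye Tat replicates 19 to 21), with values from -0.113 to -0.090 and exact permutation adjusted p values of 0.0549 to 0.0659, nor after quantile normalization (-0.079, exact permutation adjusted p = 0.136). The Psmb9 to Psmb6 ratio was the lowest, at 0.152 ± 0.0052, 0.237 ± 0.0071 and 0.211 ± 0.0071 in the 3 groups, so the constitutive transcript stayed the more abundant in every library. It rose by 0.65 on the log2 scale with Tat and was lower by a difference of -0.17 in ΔMye Tat than in F/F Tat, both without overlap (exact permutation adjusted p = 0.00649 for each).

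The class I chains were compared in the same way. The H2-K1 to H2-D1 ratio, 0.751 ± 0.012 in PBS, was 1.08 ± 0.027 for F/F Tat and 1.05 ± 0.026 for ΔMye Tat. H2-D1 was the more abundant of the pair in every PBS library, and with Tat the ratio rose by 0.53 on the log2 scale without overlap (exact permutation adjusted p = 0.00649). Between ΔMye Tat and F/F Tat it differed by -0.046 (exact permutation adjusted p = 0.0835), by -0.060 without ΔMye Tat replicate 20 (adjusted p = 0.0264) and by 0.017 after quantile normalization. The summed heavy chains to B2m ratio was 0.907 ± 0.059, 0.943 ± 0.045 and 1.11 ± 0.059. Between F/F Tat and PBS the log2 difference was 0.058 (exact permutation adjusted p = 0.322), but it was -0.28 after quantile normalization (exact permutation adjusted p = 0.00599). The ratio was higher in ΔMye Tat than in F/F Tat by 0.24, without overlap (exact permutation adjusted p = 0.00649), and by 0.13 after quantile normalization (exact permutation adjusted p = 0.00599). The Tap1 to Tap2 ratio was 5.12 ± 0.43, 5.22 ± 0.36 and 5.01 ± 0.36, with log2 differences of 0.031, -0.061 and -0.029 in the 3 comparisons (exact permutation adjusted p of 0.697, 0.356 and 0.697), and its direction reversed under other settings. After quantile normalization it was lower with Tat (-0.38, exact permutation adjusted p = 0.00599). Because H2-K1 and H2-D1 share part of their sequence (22.8% and 26.9% of their 31-base words occur in other genes), reads of one could have been counted to the other. The overlapping genes Gm19412 and Gm20496 share 22.1% of the words of Tapbp and 13% of those of Psmb8, and the strand setting of the counting is not given in the sources used here.

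The order of the levels was nearly the same in the 3 groups. B2m was the highest in each, with rank 6 or 7 among all tested genes in the PBS libraries, rank 5 in those of F/F Tat and rank 4 in those of ΔMye Tat. In PBS it was followed by H2-D1, H2-K1, Tapbp, Psmb8, Psmb10, H2-Q7, Tap1, Psmb9 and Tap2, and only the neighbours Psmb10 and H2-Q7 overlapped. In F/F Tat H2-K1 had passed H2-D1 without overlap, and Psmb10 and H2-Q7 again overlapped. In ΔMye Tat H2-Q7 had passed Psmb8 and Psmb10, and the overlapping neighbours were H2-K1 and H2-D1. Tap2 was the lowest in every group.

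Over the 17 libraries, the gene whose log2 level was most like that of each of the 10 was found by Pearson's r, which is given as a description because the points fall into 3 groups. Psmb10 was most like Psme1 (r = 0.9967), for a subunit of the PA28 proteasome activator, and Tap1 was most like Nfkb2 (r = 0.9995), for the p100 precursor of an NF-κB subunit. H2-Q7 was most like F10 (r = 0.9974), followed by H2-Q6 (r = 0.997) and H2-M2 (r = 0.9965), other class I genes. H2-K1 was most like Eva1b (0.9959), Tap2 like Slc2a6 (0.9933), Tapbp like Itgb8 (0.9958), Psmb8 like Fabp3 (0.9957) and Psmb9 like Calhm6 (0.996). The lowest of these values were those of B2m with Rbm43 (0.9722) and of H2-D1 with Med10 (0.9253).

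The remainder of the pathway responded unevenly to Tat. Of 64 other tested genes of class I, the proteasome, their regulators and class II, 31 were higher (limma, adjusted p under 0.01), 27 lower and 6 neither, beside 17% higher and 67.6% lower over all tested genes. After scaling 45 were higher and 13 lower, beside 37.1% and 38.1%. The other class I and class I-like genes went both ways, with 7 of 11 higher and 4 lower, and the same counts after scaling. H2-Q6 had the highest log2 difference of these as deposited (1.95), but H2-M2 was higher after quantile normalization (2.35 against 1.95). Of the 31-base words of H2-Q6, 51.8% occur in other genes. Mr1, which presents vitamin metabolites to MAIT cells, had the lowest (-3.78, or -2.71 after quantile normalization). Its mean in F/F Tat was 0.296 TPM, near the floor, so the size of its fall is uncertain. The PA28 subunits Psme1 (1.42, limma adjusted p = 4.71e-20) and Psme2 (1.28, limma adjusted p = 2.74e-18), which open the ends of the 20S core, rose as the immunoproteasome genes did. Psmf1, for a proteasome inhibitor, was the lowest of the 5 activator and inhibitor genes as deposited (-0.34) but was higher after median-ratio scaling (0.29). After quantile normalization Psmf1 did not pass (0.09, limma adjusted p = 0.116).

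Of the genes for peptide loading and trimming, 3 of 10 were higher with Tat (Lap3, Erap1 and Tapbpl) and 6 lower. After median-ratio scaling 7 were higher and 3 lower (Thop1, Calr and Pdia3), but after quantile normalization 4 were higher and 4 lower. Lap3, for a cytosolic aminopeptidase, had the highest log2 difference (1.65), and Thop1, for a peptidase that destroys peptides in the cytosol, the lowest (-1.27). Among the constitutive catalytic subunits, Psmb6 (0.64) and Psmb7 (0.37) were higher with Tat. Psmb5 was lower as deposited and after quantile normalization, but not after median-ratio scaling. Of the 11 other subunits of the 20S core, 7 were higher and 3 lower as deposited. All 11 were higher after median-ratio scaling, but after quantile normalization 5 were higher and 4 lower. Psma3 was the highest as deposited (1.33, with a wide SE of 0.248). Psmb3 was the lowest (-0.47, or 0.16 after median-ratio scaling and -0.70 after quantile normalization). Over all tested genes 17% were higher and 67.6% lower as deposited, and 37.1% and 38.1% after median-ratio scaling. Of the 5 genes for assembly of the proteasome, Pomp alone was higher as deposited (0.23), Pomp and Psmg4 were higher after median-ratio scaling (0.86 and 0.25), and none was higher after quantile normalization (limma adjusted p = 0.742 for Pomp). Psmg1 had the lowest difference (-1.47). Pomp encodes the chaperone that matures the catalytic subunits.

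Between ΔMye Tat and F/F Tat, 23 of the 64 genes were higher and 9 lower, beside 38.8% and 8.87% of all tested genes. After scaling 12 were higher and 24 lower, beside 16.4% and 18.8%. The upward counts of the 64 genes, with class II included, were near these shares. Without class II, 16 of 57 were higher and 9 lower as deposited, and 5 were higher and 24 lower after scaling. Psme1, like Psmb10, was lower (log2 difference -0.23, limma adjusted p = 9.65e-07), while Psme2 did not pass as deposited (0.012, limma adjusted p = 0.765) but was lower after median-ratio scaling (-0.20, limma adjusted p = 0.00422). Psme2 did not pass after quantile normalization either (0.041, limma adjusted p = 0.248). The differences of Psmb5, Psmb6 and Psmb7 were 0.21, 0.095 and -0.12 as deposited and -0.001, -0.118 and -0.34 after median-ratio scaling, so that Psmb5 was no longer higher and Psmb6 turned. After quantile normalization Psmb5 (0.18, limma adjusted p = 0.00336) and Psmb6 (0.127, limma adjusted p = 0.00266) were higher. Psmb7 did not pass there (-0.105, limma adjusted p = 0.0315).

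**Figure D4:**
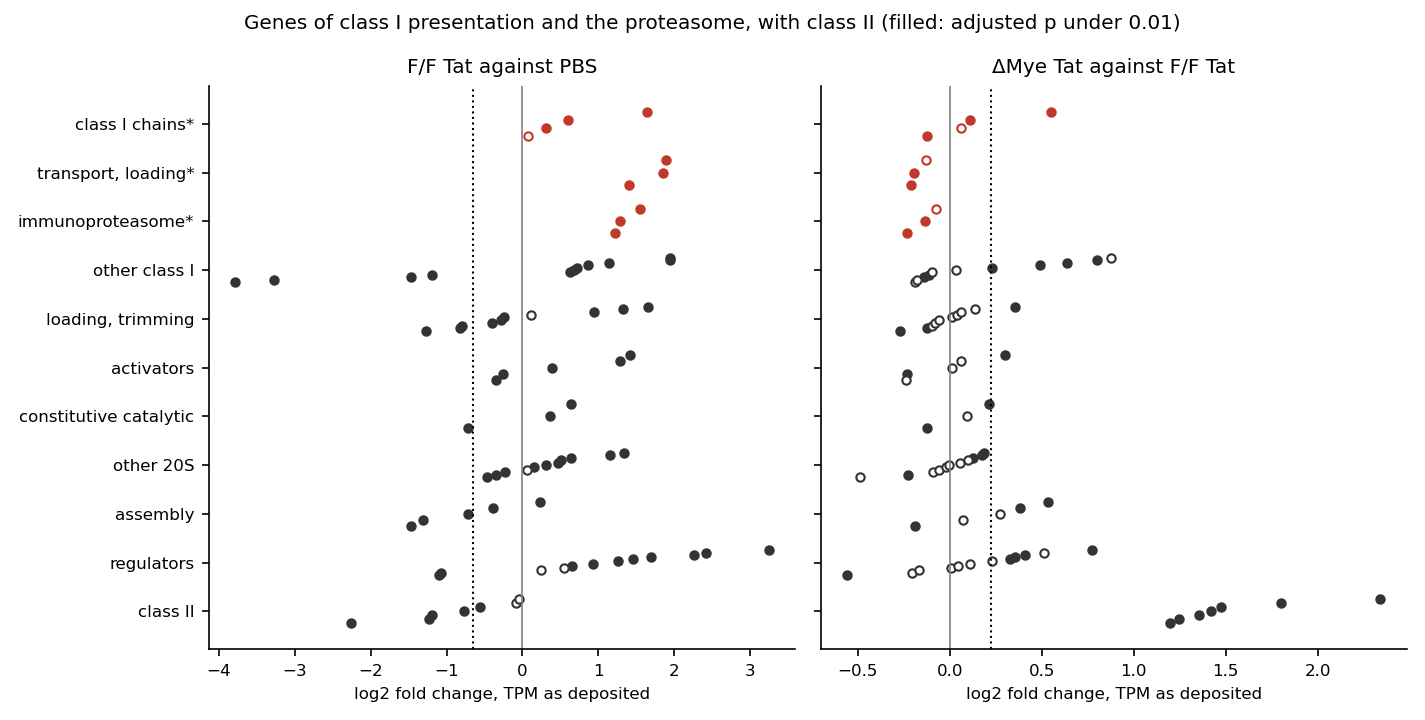
Log2 fold change (horizontal axes, TPM as deposited) of each tested gene of the pathway for F/F Tat against PBS and for ΔMye Tat against F/F Tat, one point per gene, filled where the adjusted p was under 0.01, with the 10 genes in red and a dotted line at the median of all tested genes. The class II genes lie below 0 with Tat and all 7 lie above 0 between ΔMye Tat and F/F Tat.

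Known regulators of the class I genes were among those that rose. Nlrc5 was at 14.4, 76.7 and 66.8 TPM on average in PBS, F/F Tat and ΔMye Tat, and its log2 rise with Tat was 2.41 (limma adjusted p = 2.52e-14). Its difference between the Tat groups was -0.21 as deposited (limma adjusted p = 0.106) and -0.42 after median-ratio scaling (limma adjusted p = 5.77e-04). After quantile normalization it was -0.30 and did not pass (limma adjusted p = 0.0164). Irf1, a transcription factor of the interferon response, was at 124, 595 and 760 TPM and rose by 2.26 with Tat. It was higher again in ΔMye Tat than in F/F Tat as deposited (0.35, limma adjusted p = 2.82e-06) and after quantile normalization (0.39, limma adjusted p = 1.82e-06). After median-ratio scaling this difference did not pass the threshold (0.14, limma adjusted p = 0.0268). In all, 8 of 12 tested regulators were higher with Tat and 2 were lower (Rfxap and Rfxank), beside 17% and 67.6% of all tested genes, and 9 were higher and 1 lower after scaling, beside 37.1% and 38.1%. Socs1, for a feedback inhibitor of cytokine signaling, had the highest log2 difference with Tat (3.24), and Rfxank, for a subunit of the RFX complex, the lowest (-1.10).

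The class II genes moved in another way than class I. With Tat none of the 7 was higher and 5 were lower as deposited, beside 17% and 67.6% of all tested genes. After median-ratio scaling 2 were higher and 3 lower, beside 37.1% and 38.1%. The downward counts were near these shares. After quantile normalization none was higher and 6 were lower, with a median of -0.43 beside -0.07 over all tested genes. H2-Ab1 and Cd74, higher after median-ratio scaling, were lower there (-0.30, limma adjusted p = 1.13e-06, and -0.25, limma adjusted p = 9.23e-06). Between ΔMye Tat and F/F Tat all 7 were higher as deposited, by 1.20 to 2.34 on the log2 scale, beside 38.8% of all tested genes. All 7 were also higher after median-ratio scaling (0.98 to 2.15), beside 16.4%, and after quantile normalization (1.16 to 1.98). As deposited the 10 class I and immunoproteasome genes lay between -0.23 and 0.55. Ciita, the transactivator of class II genes, was at 2.30, 0.966 and 5.28 TPM on average in PBS, F/F Tat and ΔMye Tat. Its log2 difference with Tat was -1.19 as deposited (limma adjusted p = 3.37e-07) and -0.60 after median-ratio scaling (limma adjusted p = 6.51e-04). After quantile normalization it did not pass (-0.07, limma adjusted p = 0.633). H2-DMa, for a chain of the peptide exchanger of class II, had the lowest difference with Tat (-2.25). No test was made between the class I and class II lists.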

How the data were processed

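The deposited values were TPM per gene symbol. Per the study's methods, the authors ran Salmon with Ensembl's GRCm38 annotation (mm10 per the labels), and no normalization between libraries is stated for the TPM. TMM, in edgeR, was applied by the authors to read counts for their own comparison and was not repeated here. TPM hold no read counts, so neither depth nor counting error can be given, and precision rests on how far libraries of a group differ. Groups were taken from the labels, which do not say whether each library came from 1 mouse. The study calls its libraries biological replicates of mouse, and p values measure the spread between them. The 10 genes, the pathway lists and the markers were chosen with earlier results of these data known.

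Of the rows, 10451 reached 1 TPM in 5 or more of the 17 libraries and were fitted on log2(TPM + 0.1) in one limma model of the 3 groups (limma 3.58.1, R 4.3.3, eBayes with trend, 14 residual degrees of freedom), with Benjamini-Hochberg adjustment over all of them. A gene passed at an adjusted p under 0.01, and where stated at a 3-fold change. Ratios were tested on the log2 scale by exact permutation in SciPy 1.17.1, at an adjusted p under 0.05. Named genes were the 10, the highest and lowest of each list with Tat, the constitutive subunits, PA28, Nlrc5, Irf1, Ciita, Ikbkb, Lyz2 and the most similar genes by Pearson's r. Members of counts of 5 or fewer, and H2-M2 and single marker genes, were named after their values were seen. Some results of this rule and of the motif search are not reported here. Coordinates and 31-base words came from GENCODE M21 on GRCm38 and promoters from RefSeq on GRCm38.p6. Alternatives were other pseudocounts (0.5 and 1), no filter or a filter of 5 TPM, both scalings, and leaving out each library. Quantile normalization before the ratios was added after seeing the data.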

Additional observations from a re-analysis of the deposited data

Results flagged for a closer look

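Of 48 groups of values (10 genes and 6 ratios in 3 groups), 5 had a library far from the others by Dixon's criterion, and chance alone would give about 1 in 20. H2-D1 was lowest in PBS replicate 2, at 4358.79 TPM. Tap1 was highest in PBS replicate 5, at 143.692 TPM, and Tapbp was lowest in F/F Tat replicate 9, at 1472.52 TPM. The Tap1 to Tap2 ratio was lowest in PBS replicate 6, at 4.26065, and the H2-K1 to H2-D1 ratio was lowest in PBS replicate 1, at 0.727635. Leaving out each of these libraries in turn ended no call of the 10 genes between F/F Tat and PBS. Without PBS replicate 6 the Tap1 to Tap2 ratio differed by -0.021 instead of 0.031 on the log2 scale between F/F Tat and PBS (exact permutation adjusted p = 0.684).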

How the results depend on the processing

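With no filter, 3 of the 10 genes were lower in ΔMye Tat than in F/F Tat (B2m and Psmb8 no longer passed). Median-ratio scaling changed the most. With Tat, 7 of the 10 genes passed a 3-fold change, 13 pathway genes were lower and the median log2 difference was 1.979. Between ΔMye Tat and F/F Tat, 1 of the 10 was higher and 8 lower, 12 pathway genes were higher and 24 lower, the median was -0.341, and H2-K1 (-0.151) and H2-D1 (-0.105) reversed. Against PBS, 6 of the 10 passed a 3-fold change in ΔMye Tat, 9 pathway genes were lower and the median was 1.621. After quantile normalization 1 gene was lower with Tat, H2-D1 (-0.31), and the median was 1.233, 4 of the 10 were higher and 2 lower in ΔMye Tat than in F/F Tat, with B2m reversed (0.201), and the median against PBS was 1.074, with H2-D1 at -0.001. The Tap1 to Tap2 ratio reversed with a pseudocount of 1 (0.001, ΔMye Tat against PBS) and as a difference of medians (-0.025 with Tat and 0.005 between the Tat groups). Leaving out each library gave -0.021 to 0.051 for this ratio with Tat, -0.081 to 0.004 for ΔMye Tat against PBS, -0.124 to -0.090 for Psmb10 to Psmb7 and -0.060 to -0.036 for H2-K1 to H2-D1 between the Tat groups. Quantile normalization before the ratios, chosen after seeing the data, gave -0.079 for Psmb10 to Psmb7 and 0.017 for H2-K1 to H2-D1 between the Tat groups. It gave -0.379, 0.010 and -0.369 for Tap1 to Tap2 (with Tat, between the Tat groups, and ΔMye Tat against PBS) and -0.283 and -0.151 for the heavy chains to B2m (with Tat, and ΔMye Tat against PBS). The causes of these changes were not tested. Unknown depth limits the precision of the low genes. No paired analysis was possible because the groups share no replicate numbers.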
